A study of Arabidopsis thaliana with 12 samples.

Results

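A group of 23 Arabidopsis genes of moderate signal was higher in plants treated with DCMU than in untreated plants in each of 3 replicate pairs. The plants were wild type of the ecotype C24. The treated group grew under light that favours photosystem II and received DCMU, and the untreated group grew under that light without it, so both groups share the light. Total RNA from 6 samples of each group, numbered 1 to 6 in the labels, was measured on 12 arrays. The labels give no age, organ, dose or length of treatment, and do not say whether the numbers stand for separate plantings.

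The array carried 3439 probes, of which 692 were annotated to exactly 1 gene, and 529 of these had a mean intensity from 0.27 to under 1.5 over the 12 arrays, in the units of the authors' scaling. Values were floored at 0.067, log2-transformed and averaged over numbers 1-2, 3-4 and 5-6 in each group, which gave 3 replicates a group. A probe was taken when DCMU minus no DCMU was at least 0.25 on the log2 scale in all 3 pairs. This held for 26 of the 529 probes (4.91%), and for 4.25% of all 2634 probes of the window with or without a single gene name. A list of 12 loci was left out by name, 3 of which had met the thresholds (TPP2, CSLA01 and AT2G35390), which left 23 genes, each with 1 probe. The genes were thus selected on their DCMU minus no DCMU differences over all 12 arrays and on their mean intensity, so the sizes and counts below describe them and support nothing about them. In the same window 14 of 529 probes (2.65%) were lower with DCMU by at least 0.25 in every pair.

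DCMU, the herbicide diuron, occupies the plastoquinone binding site of photosystem II and stops the reduction of plastoquinone there. The redox state of the plastoquinone pool is known to act on the expression of both plastid and nuclear genes, and light that favours photosystem II is a standard way to reduce that pool. Electrons can also enter the pool from the stromal side through the chloroplast NADH dehydrogenase-like complex (NDH), which works in cyclic electron flow around photosystem I. CRR41 is the one gene of the 23 that the gene tables used here tie by name to this route.

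Array totals ran from 3643 to 3768 and the median spot from 0.596 to 0.687 over the 12 arrays. Between 3.93% and 4.22% of probes were listed at 0 on an array. No value of the 23 genes lay at or under the floor, and all 23 passed the filter on low values. All 5 markers of green tissue had a probe. Their summed intensity was 14.8 to 17.8 in DCMU-treated plants and 25.9 to 32.9 in untreated plants. The sum thus moved with the treatment, and the lowest value of any marker was 0.507. A sum is weighted to its brightest markers, and not all 5 moved the same way. SBPASE, among the 5, was higher with DCMU, by a mean log2 difference of 0.40 with 0.17 in its smallest pair. The part of these markers in the results below was not tested. The 3 root plastid markers, the 5 markers of senescing leaves and the 1 seed marker had no probe of their own. In RNA of whole samples, more cells that express a gene and more RNA per cell cannot be told apart.

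The platform annotation and RefSeq's TAIR10.1 gene table, in which all 23 were found, name 2 of them beyond the locus, CRR41 (AT1G51100) and SEH1H (AT1G64350). The other 21 carry only their locus identifier there, and no role is given to them here. Among the 529 single-gene probes of the window, 71 had a name other than the locus. A sorting of the window's genes into functional classes by words in their names therefore placed 455 of 529 genes and 21 of 23 in the class without a description, and CRR41 and SEH1H in the class of other named genes. Gene names were not checked by sequence.

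CRR41, chlororespiratory reduction 41, is a stromal protein needed for the assembly of the NDH complex. Its intensity was 0.681 at lowest, 0.720 at the median and 0.743 at highest in DCMU-treated plants, against 0.546, 0.562 and 0.600 in untreated plants. All 6 treated arrays lay above all 6 untreated ones. The averaged replicates were at 0.718 ± 0.0204 with DCMU and 0.566 ± 0.0176 without it (SD, n = 3 each), a 1.27-fold higher level with log2 differences of 0.43, 0.30 and 0.29 in numbers 1-2, 3-4 and 5-6. The 2 arrays of a pair differed by a median of 0.0353 on the log2 scale, the closest agreement among the 23 genes.

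Another 4 named genes of the NDH route had a probe of their own, a list drawn up once CRR41 was known to be in the group. None of the 4 reached 0.25 in every pair, and none passed limma's test at an adjusted p under 0.05, with or without the replicate number as a block. CRR21, a pentatricopeptide repeat protein that edits an NDH transcript, had a mean log2 difference of 0.24 ± 0.20 (SD over 3 pairs), with 0.47 in numbers 5-6 and 0.0791 in numbers 3-4. NdhN, a subunit of the complex, was at 0.18 ± 0.13 and PIFI, a protein needed for NDH activity, at 0.14 ± 0.21. NdhS, the subunit that docks ferredoxin, had a probe above the intensity window, and differences of 0.52, -0.30 and 0.40. CRR21 and NdhN were higher with DCMU in all 3 pairs, while in PIFI and NdhS the pair of numbers 3-4 ran the other way. A mean difference above 0 was common, at 73.5% of the 529 single-gene probes of the window. Nothing is therefore read from the directions of these 4 genes.

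SEH1H is the plant homologue of the nucleoporin Seh1, part of the scaffold of the nuclear pore. It was at 0.177, 0.545 and 0.644 (lowest, median, highest) with DCMU and at 0.155, 0.411 and 0.522 without. These ranges overlapped, and number 6 was the lowest array in both groups, at 0.177 with DCMU and 0.155 without, while every other array read 0.337 or more. Between the same numbers the differences were nearly equal, at 0.37, 0.33 and 0.38, and with number 5 alone in place of 5-6 the last was 0.57. Its mean difference of 0.36 was far less steady when 1 replicate was left out of 1 group. It was 0.0365 without untreated numbers 5-6, and 0.17 and 0.24 without DCMU numbers 1-2 and 3-4. It was 0.55 without untreated numbers 1-2 and 0.68 without DCMU numbers 5-6. Leaving a replicate out of 1 group breaks its pair, here and in all such values below. A level shared by the same numbers of both groups, such as the low number 6, then no longer cancels. In the window 5 probes were at least 2-fold lower in number 6 than in number 5 in both groups, and SEH1H was the only one of the 23 genes among them. AT1G44920 showed a like drop: number 6 read 0.318 with DCMU and 0.180 without, and number 5 read 0.525 and 0.416. Its 12 arrays overlapped between the groups, and its differences were 0.31, 0.28 and 0.58, the last 0.34 with number 5 alone. Its mean of 0.39 was 0.10 without untreated numbers 5-6, 0.23 without DCMU numbers 3-4 and 0.61 without untreated numbers 3-4.

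**Figure D1:**
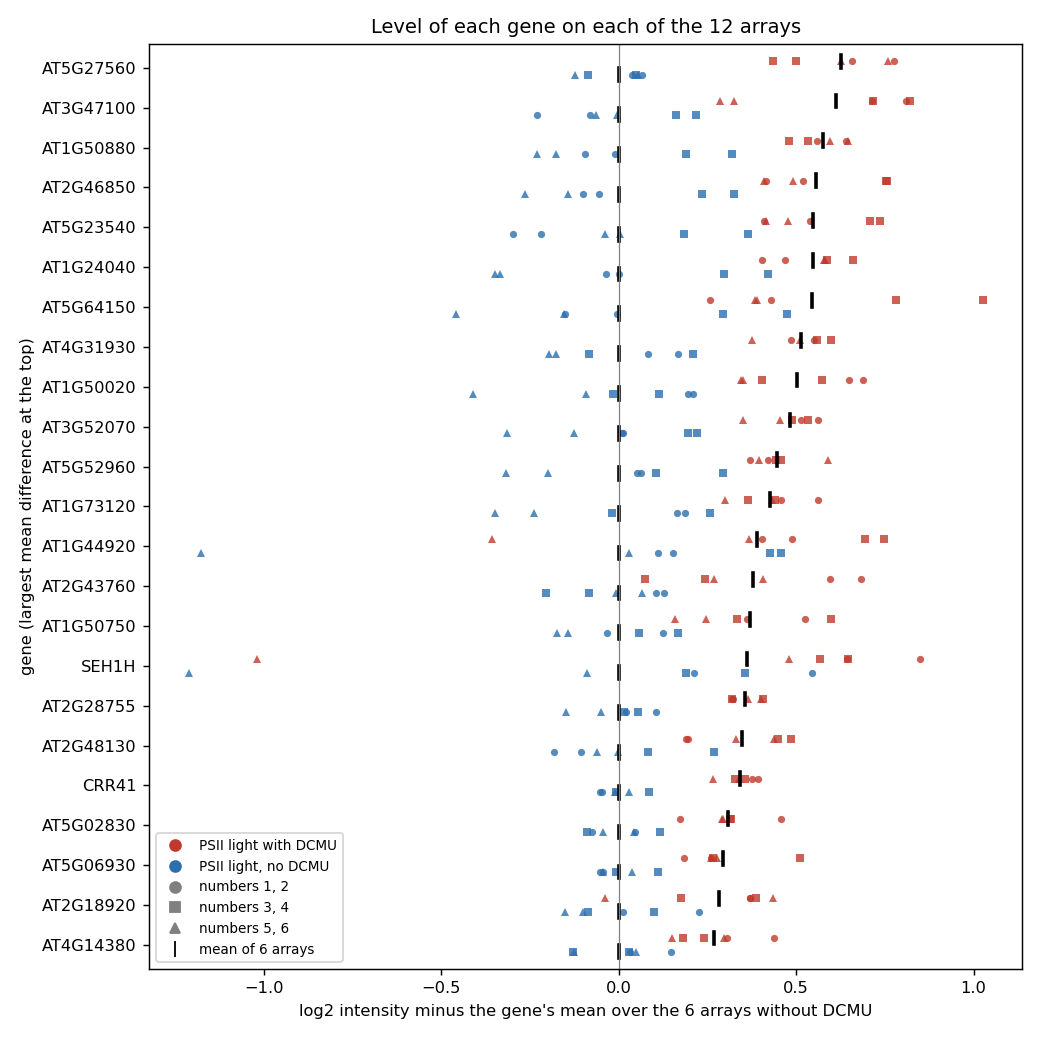
Log2 intensity of each of the 23 genes (rows, largest mean difference at the top) on the 6 arrays with DCMU (red, upper) and the 6 without (blue, lower), as the difference from the gene's mean over the arrays without DCMU; marker shapes show the sample numbers and black ticks the mean of 6 arrays. In 15 genes every red point lies to the right of every blue one, and the far-left triangles of SEH1H and AT1G44920 are number 6 of both groups.

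The sizes were modest, and the rule itself bounded the lower end of their range. The mean log2 difference ran from 0.27 (AT4G14380, 1.20-fold) to 0.63 (AT5G27560, 1.54-fold), with a median of 0.43 (1.34-fold), where the median over all 3278 features was 0.10 and over the 529 single-gene probes of the window 0.12. All 23 genes were higher with DCMU in each of the 6 same-numbered comparisons, which held for 31.8% of the 529. The 12 arrays did not overlap between the groups in 15 of the 23, against 11.0% of the 529, and the averaged replicates did not overlap in 20 of the 23, against 24.6%. Since the rule asked for a rise in every pair, nothing is read from these counts.

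AT5G27560 had the largest mean difference. It read 0.579, 0.668 and 0.733 (lowest, median, highest) with DCMU and 0.393, 0.441 and 0.448 without, so no array overlapped. AT3G47100 read 0.671, 0.904 and 0.973 with DCMU, against 0.469, 0.538 and 0.640 without. Its groups also stood apart, but its difference was uneven, 0.92 in numbers 1-2 and 0.34 in numbers 5-6, the smallest of its 3 pairs. AT1G50880 read 1.32, 1.41 and 1.48 with DCMU, and 0.809, 0.915 and 1.18 without it. It barely met the rule, at 0.2525 in numbers 3-4, although numbers 5-6 differed by 0.82.

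AT2G46850 read 0.893, 0.956 and 1.14 with DCMU, against 0.561, 0.638 and 0.843 without. Its differences were fairly even, at 0.54, 0.47 and 0.65. For AT5G23540 the treated arrays gave 0.499, 0.534 and 0.6255 and the untreated arrays 0.306, 0.371 and 0.483, again with no overlap. AT1G24040 gave 0.833, 0.942 and 0.996 with DCMU and 0.495, 0.623 and 0.843 without. Here 5 of 6 treated arrays lay above all untreated ones, and the pairs spanned 0.26 to 0.92, the widest ratio of largest to smallest difference in the group (3.48).

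AT5G64150 gave 0.521, 0.580 and 0.888 with DCMU and 0.317, 0.414 and 0.606 without. Of the treated arrays 2, numbers 3 and 4, lay above all untreated ones, and numbers 3 and 4 were also the highest of the untreated arrays. The pairs nonetheless differed by 0.42, 0.52 and 0.69. AT4G31930 gave 1.27, 1.41 and 1.48 with DCMU, against 0.854, 0.979 and 1.13 in untreated plants, with no overlap. In AT1G50020 the treated arrays read 0.387, 0.428 and 0.490, and the untreated arrays 0.229, 0.315 and 0.352. These groups did not overlap either, and the 3 differences lay within 0.44 and 0.60.

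AT3G52070 read 1.01, 1.12 and 1.17 with DCMU and 0.636, 0.797 and 0.922 without. Its treated replicates were tight (1.11 ± 0.0542, SD, n = 3) and its untreated ones wider (0.797 ± 0.117, SD, n = 3). AT5G52960 read 0.517, 0.540 and 0.602 with DCMU, against 0.321, 0.417 and 0.491 without, and stood at the very edge of the rule with 0.2503 in numbers 3-4 beside 0.75 in numbers 5-6. AT1G73120 read 0.480, 0.527 and 0.575 with DCMU, against 0.306, 0.410 and 0.465 without. In both of these genes the spread lay mostly on the untreated side: the untreated replicates had SDs of 0.0635 and 0.0663 and the treated ones of 0.0186 and 0.0275 (n = 3 each). AT1G73120 had a mean difference of 0.43, and 0.28 without untreated numbers 5-6.

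The remaining 8 genes had mean log2 differences from 0.27 to 0.38. AT2G43760 (1.30-fold) and AT1G50750 (1.29-fold) each had 1 treated array within the untreated range, and AT2G43760, at 0.38, was at 0.25 without DCMU numbers 1-2. AT2G28755 (1.28-fold), AT5G02830 (1.24-fold), AT5G06930 (1.23-fold) and AT4G14380 (1.20-fold) had groups that did not overlap, while AT2G48130 (1.27-fold) and AT2G18920 (1.22-fold) had 4 treated arrays above all untreated ones. AT5G02830 had the smallest SDs over averaged replicates, at 0.534 ± 0.00467 with DCMU and 0.431 ± 0.00415 without (SD, n = 3 each). The single arrays agreed less: its DCMU numbers 1 and 2 read 0.592 and 0.486, and the largest log2 difference within a pair, 0.284, was close to its mean difference of 0.31. The most even differences over the 3 pairs were those of AT4G14380, AT1G50750 and AT5G02830, with ratios of largest to smallest of 1.08, 1.12 and 1.12.

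The genes did not share one profile over the replicate pairs. Numbers 5-6 held the largest difference in 15 genes, numbers 1-2 in 7 and numbers 3-4 in 1, and numbers 3-4 held the smallest in 14. The single-gene probes of the window ran the same way, with the largest difference in numbers 5-6 for 50.7% and the smallest in numbers 3-4 for 52.4% of them. Over all features the median difference was 0.0952 in numbers 1-2, 0.0298 in numbers 3-4 and 0.129 in numbers 5-6, and over the 23 genes it was 0.40, 0.30 and 0.48. On the untreated side, numbers 5-6 were the lowest replicate in 15 of the 23 genes. On the treated side, numbers 3-4 were the highest in 11, numbers 1-2 in 9 and numbers 5-6 in 3. These lowest and highest replicates were not counted over the other probes of the window, so nothing is read from them.

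**Figure D2:**
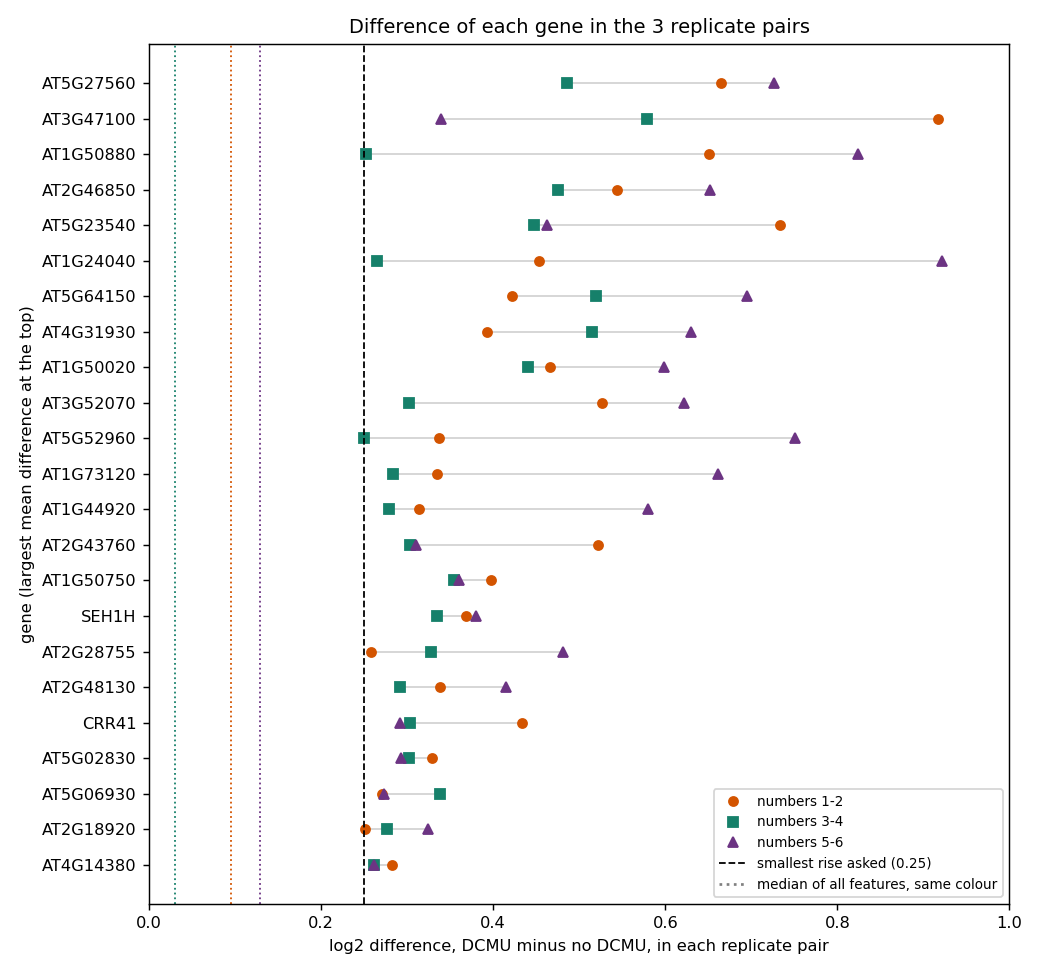
Log2 difference, DCMU minus no DCMU, of each of the 23 genes in the 3 replicate pairs (orange circles for numbers 1-2, green squares for 3-4, purple triangles for 5-6), with the median of all features in each pair as a dotted line of the same colour and the smallest rise asked, 0.25, as a dashed line. Most purple triangles lie to the right, and 7 genes have a largest difference at least 2 times their smallest.

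When each array was centred on its median, which takes this overall shift away, 9 of the 23 genes still reached 0.25 in every pair: AT5G27560, AT1G50880, AT2G46850, AT5G23540, AT1G24040, AT5G64150, AT4G31930, AT1G50020 and AT3G52070. In the window 12 single-gene probes then met the rise and 20 the fall, against 26 and 14 as scaled by the authors. After quantile normalization 8 of the 23 met the rise. All 23 mean differences stayed above 0 under both, and were 0.19 to 0.55 after median centring. Median centring takes the same amount from the mean difference of every gene. With at least 0.25 asked in each pair, the sign after it followed from the choice of genes.

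In the limma fit over all features 4 of the 23 genes passed an adjusted p under 0.05, where 1.92% of all 3278 features were called higher. These were AT5G27560, AT3G47100, AT1G50880 and AT4G31930. With the replicate number as a block 20 of the 23 passed, against 10.7% of features, the exceptions being AT5G06930, AT2G18920 and AT4G14380. With the block and median centring together 14 passed, against 5.19%. The fit used the contrast that chose the genes, so these counts are a description. The balance of calls over all features turned with the block: 63 were higher and 104 lower without it, 351 higher and 215 lower with it. After median centring they were 54 higher and 154 lower without the block and 170 higher and 337 lower with it. Leaving out 1 replicate moved the count of 4. It was 0 without DCMU numbers 1-2 (limma, with 18 of 23 at an unadjusted p under 0.05, and no other tool was run). It was 1 without DCMU numbers 3-4, untreated numbers 1-2 or untreated numbers 5-6. Without DCMU numbers 5-6 it was 2, and without untreated numbers 3-4 it was 10. The calls over all 3278 features moved too, from 63 higher. They were 19, 44 and 20 higher without DCMU numbers 1-2, 3-4 and 5-6. Without untreated numbers 1-2, 3-4 and 5-6 they were 19, 160 and 20.

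**Figure D3:**
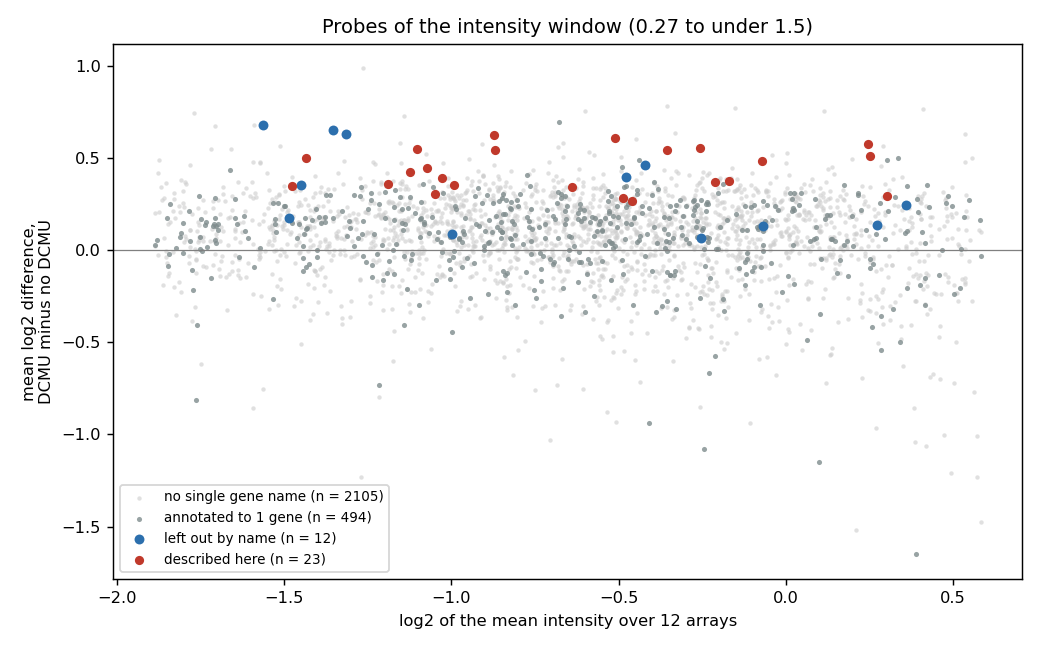
Mean log2 difference, DCMU minus no DCMU, against the log2 of the mean intensity over 12 arrays for the 2634 probes of the window; red points are the 23 genes, blue points the 12 loci left out by name, dark grey the other single-gene probes and light grey the rest. The red points lie between mean intensities of 0.359 and 1.23, short of both ends of the window.

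The genes were spread over the intensity window. The 529 probes were cut into 4 equal parts by mean intensity. From the dimmest part to the brightest, these held 4, 7, 6 and 6 of the 23. AT2G48130 was the dimmest, at a mean of 0.359, and AT5G06930 the brightest, at 1.23. The 2 arrays of a pair differed by a median of 0.0842 on the log2 scale over the 23 genes and 0.0817 over the 529 probes. Just inside the smallest rise lay AT5G52960, AT2G18920 and AT1G50880, at 0.2503, 0.2511 and 0.2525, and just outside it AT1G69910, AT3G20490 and PRA1.B3, at 0.238, 0.236 and 0.232. Their mean differences of 0.37, 0.35 and 0.44 lay within the range of the 23. Outside the intensity bounds, 7 dimmer and 3 brighter single-gene probes met the same rise. The nearest below was AT3G03890, at a mean intensity of 0.265, and the nearest above AT3G09080, at 2.95.

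**Figure D4:**
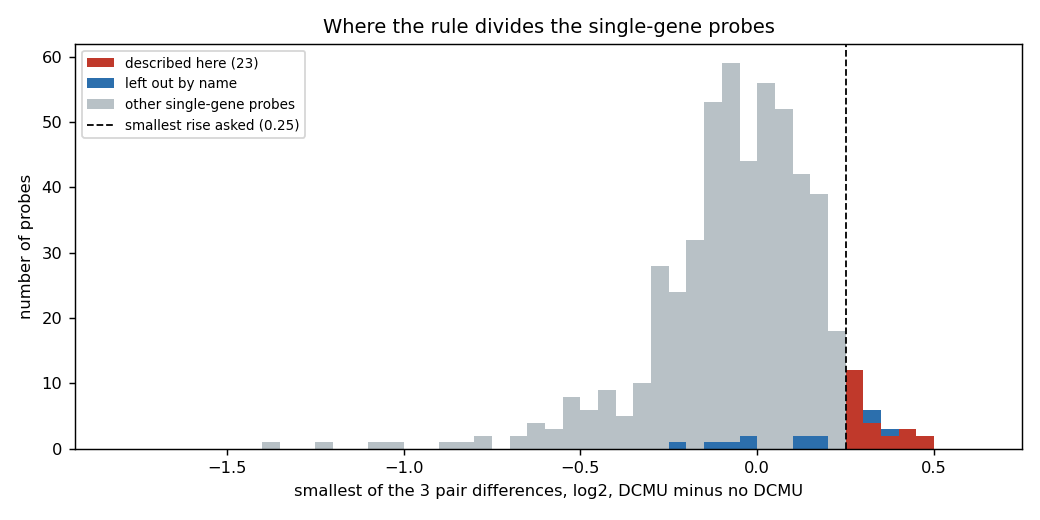
Number of single-gene probes of the window by the smallest of their 3 pair differences (log2, DCMU minus no DCMU); red bars are the 23 genes, blue bars the loci left out by name, grey bars the other probes, and the dashed line is 0.25. The counts decline through the line, with no gap between the genes just inside and just outside it.

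By locus, 8 of the 23 genes lie on chromosome 1, 5 on chromosome 2, 2 each on chromosomes 3 and 4 and 6 on chromosome 5. Of the 529 probes, 528 had a locus that gives a chromosome, with 24.8%, 18.8%, 17.4%, 17.4% and 21.6% on chromosomes 1 to 5. On chromosome 1, AT1G50020, AT1G50750, AT1G50880 and CRR41 fall within 101 consecutive protein-coding genes in RefSeq's gene order. This stretch was picked out after the values were seen, so it carries no test. Of its 101 genes, 9 had a single-gene probe and 8 of these were in the window. The ends of the stretch are themselves genes of the group, and 4 of the 9 were higher by the rule. With AT1G50510, dimmer than the window, 5 of the 9 rose by at least 0.25 in all 3 pairs. That rise held for 4.91% of the 529 window probes. AT1G50510 had differences of 0.53, 0.37 and 0.31. The 5 genes outside the group had mean log2 differences of 0.22 (SIRB), 0.0375 (AT1G50390), 0.40 (AT1G50510), 0.30 (AT1G50770) and 0.31 (AT1G51080). All were above 0, as were 73.5% of the 529 window probes. Just outside the stretch, AT1G50000, 2 genes before its start, was lower with DCMU in all 3 pairs (-0.24, -0.17 and -0.51), and AT1G51110, next to CRR41, had a mean of 0.16 with -0.000587 in numbers 3-4.

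Probes listed next to those of the 23 genes were also somewhat higher with DCMU. Over the 5 probes on either side in the deposited table, leaving out those at the floor on every array, the median log2 difference ranged from -0.10 (around CRR41) to 0.31 (around AT4G31930), with a median of 0.18 over the 23 genes and 0.11 over the 529 probes. It was at least 0.25 around 4 of the 23, against 9.26% of the 529. Whether the order of the table follows the position of the spots is not given in the sources used here, and the part of neighbouring spots in the result was not tested.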

How the data were processed

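Spot intensities of 12 arrays, 6 per group, were taken from the values the authors deposited, on a linear scale that had been scaled between arrays, as near-equal totals show. How the RNA was labelled and the arrays were scaled is not given in the sources used here. Values under 0.067 were set to that floor before log2, and 160 probes at or under it on every array were left out of the fit. Spots of 1 gene were averaged (3278 features). Numbers 1-2, 3-4 and 5-6 were averaged: after subtracting group means, samples of these numbers correlated at 0.361 to 0.666, and others at -0.580 to -0.111, in part by the centring. Across groups, same-numbered replicates correlated at 0.384 to 0.445, each over 0.1, and others at -0.377 to 0.0141. The numbers were therefore taken to pair the groups, though the labels do not say what they stand for. The main fit does not use this pairing, and the fit with the replicate block does. The fits used limma 3.58.1 (R 4.3.3, two-sided, Benjamini-Hochberg over all features, 0.05). The fit without the block was tested on simulated data with independent replicates, which covers neither the pairing nor the block. P-values measure the spread between these samples, which may be technical. The genes and lists were chosen with earlier results of these data known. By rule, per-array values are given for the 12 largest differences and the largest further gene of each functional class; CRR41 was added after its values were seen. Saturation and local background were not used. Promoter motifs were not analysed here. Alternatives are given in the closing section.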

Additional observations from a re-analysis of the deposited data

Results flagged for a closer look

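Dixon's test was run on intensities before log2, at 1 in 20, in 46 groups of 6 arrays (23 genes, each with and without DCMU). It flagged an array far from the others in 2 groups. The rate of 1 in 20 assumes 6 independent arrays. The arrays here come in correlated pairs, so the number that chance would give is not known. SEH1H in DCMU-treated plants had number 6 at 0.177, with the next lowest array at 0.499. AT5G06930 in DCMU-treated plants had number 4 at 1.58, with the next highest at 1.34. The low number 6 of untreated SEH1H, and of AT1G44920 in both groups, was not flagged on this scale. A low array stands further from the rest on the log2 scale, where the test was not run. The lack of a flag therefore does not make those arrays ordinary.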

How the results depend on the processing

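The limma count of 167 features became 566 with the replicate block, 507 with the block and median centring, 110 with a floor at the 10th percentile, 102 without the filter on dim probes, 1089 with 12 separate samples and, chosen after seeing the data, 310 at a false discovery rate of 0.1. Of the 23 genes, 4 passed. With the block, the block and median centring, 12 separate samples and that false discovery rate, 20, 14, 21 and 13 did so. In the same order 351, 170, 767 and 167 of all features were called higher, against 63 in the main fit. The fit of 12 separate samples treats the 2 arrays of a pair as independent. They correlated at 0.361 to 0.666, so its counts of 1089 and 21 overstate the evidence. Leaving out 1 replicate gave 77 to 283 features (77 and 90 without DCMU numbers 1-2 and 5-6, 82, 283 and 87 without untreated numbers 1-2, 3-4 and 5-6) and 0 to 10 of the 23. The 26 probes that met the rise became 12 after median centring, 11 after quantile normalization, 44 and 14 at 0.2 and 0.3 in each pair, and 11 when each of the 6 same-numbered samples had to differ by 0.25. Without 1 replicate pair they were 35 to 82 (46, 82 and 35 without numbers 1-2, 3-4 and 5-6), fewer pairs having to pass. The median difference of the 23 genes, 0.43, was 0.33 after quantile normalization and 0.35 to 0.53 without 1 replicate. No difference of the 23 genes turned its sign under any setting run. Since the rule asked for a rise in every pair, nothing is read from this. The lowest difference was 0.0365, of SEH1H without untreated numbers 5-6. The cause of the other moves was not tested. With 3 replicates a group, the number of arrays limits precision, and without background values a dim level cannot be told from none.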
